A study of Bos grunniens with 18 samples.

Results

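The comparison of pregnancy with anestrus in yak (*Bos grunniens*) blood rested on 12 of the 18 libraries of the series, the 6 of the anestrus group (Y-A) and the 6 of the pregnancy group (Y-P). They were chosen by the stage in their labels and paired by the replicate number of the sample name. Neither the labels nor the methods say that a number marks the same cow at both stages. The study followed 6 cows aged 4 to 8 years through anestrus, estrus and pregnancy and sampled whole blood, drawn into EDTA and lysed in TRIzol LS, so that red cells, leukocytes and platelets all contributed RNA. The Y-P draw came after estrus synchronization with a progesterone pessary, a prostaglandin F2α analog and GnRH and after artificial insemination, whereas Y-A was the state before estrus. Stage, sampling time and this hormone treatment therefore ran together and cannot be told apart. The day of gestation and a reading of the blood cell counts were not given in the sources used here. The remaining 6 libraries (estrus, Y-E) entered only an alternative fit.

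The RNA of mammalian blood comes mainly from leukocytes and, where they circulate, from reticulocytes. These are young red cells that have lost their nucleus but still carry messenger RNA. Reticulocyte RNA is dominated by the globin chains of hemoglobin, the enzymes and carriers of heme synthesis, and the proteins of the red cell membrane. Leukocyte RNA divides into myeloid cells (neutrophils, monocytes, eosinophils) and lymphoid cells (T, B and natural killer cells), which are told apart by surface receptors and granule proteins.

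Library depth ran from 30247267 to 41016667 counts for Y-A and from 30343748 to 48401076 for Y-P. A gene without a count may have had up to 3, which equals 0.0620 to 0.0992 CPM (counts scaled to a library of standard size). Of the 20607 genes in the deposited table, 13991 were tested. Markers of red cells, granulocytes, monocytes, lymphocytes and platelets were all measured, as the blood label implies. Several libraries stood apart. Y-A replicate 6 had the highest summed levels of the lists for heme synthesis, red cell membrane and late red cell maturation, and Y-P replicates 2 and 6 the highest level of FOS and DUSP1. Levels below are CPM after TMM scaling, given as the lowest, the median and the highest of the 6 libraries, and changes are log2 fold changes of Y-P against Y-A ± SE with an adjusted p from edgeR's quasi-likelihood test with the replicate number as a block.

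Calls needed both an adjusted p under 0.05 and a log2 fold change of 1 or more in either direction. In Y-P, 158 genes were called, 1.13% of those tested. They comprised 130 lower genes (0.929%) and 28 higher genes (0.2%). The median change was -1.59 among the lower genes and 1.15 among the higher genes, beside 0.01 over all genes tested. With the adjusted p alone, 508 genes passed (3.63%), 413 lower (2.95%) and 95 higher (0.679%), and 22.2% of the genes had an unadjusted p under 0.05. The levels of the 2 groups did not overlap in 553 genes (3.95%), 412 lower (2.94%) and 141 higher (1.01%). In 6 of 6 pairs 9.19% of the genes were lower and 6.26% higher. The excess of lower calls depended on the scaling and the test. Higher genes made up 17.7% of the calls here, 51.6% of 188 calls with library size only, 39.1% of 381 calls in DESeq2, and 52.5% of 120 calls or 63.2% of 261 calls in limma on log2(FPKM + 1) or log2(FPKM + 0.1). Scaling by library size alone moved the median change of all genes tested from 0.01 to 0.19, so changes are given relative to the TMM scaling.

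Red cell genes made up part of the largest decreases. Of the 35 genes called lower by at least 8-fold, 13 were members of the red cell lists, 2 of the platelet list, none of the leukocyte lists and 20 of none of these lists. Of the 95 genes called lower by 2- to 8-fold, 7 belonged to the red cell lists, 4 to the platelet list, 2 to the leukocyte lists and 82 to none of these. None of the 28 higher genes was in any of these lists. The lists hold chosen members only, so a gene outside them may still be expressed in red cells. They were chosen with earlier results of these data known, and the counts by list depend on that choice. Altogether 20 of 64 tested red cell genes were lower and 0 higher in edgeR, with 38 at an unadjusted p under 0.05 in either direction, and their median change was -0.78. Among 107 tested leukocyte genes 2 were lower and 0 higher, with 48 at an unadjusted p under 0.05, and their median change was 0.14. DESeq2 called 7 leukocyte genes.

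**Figure D1:**
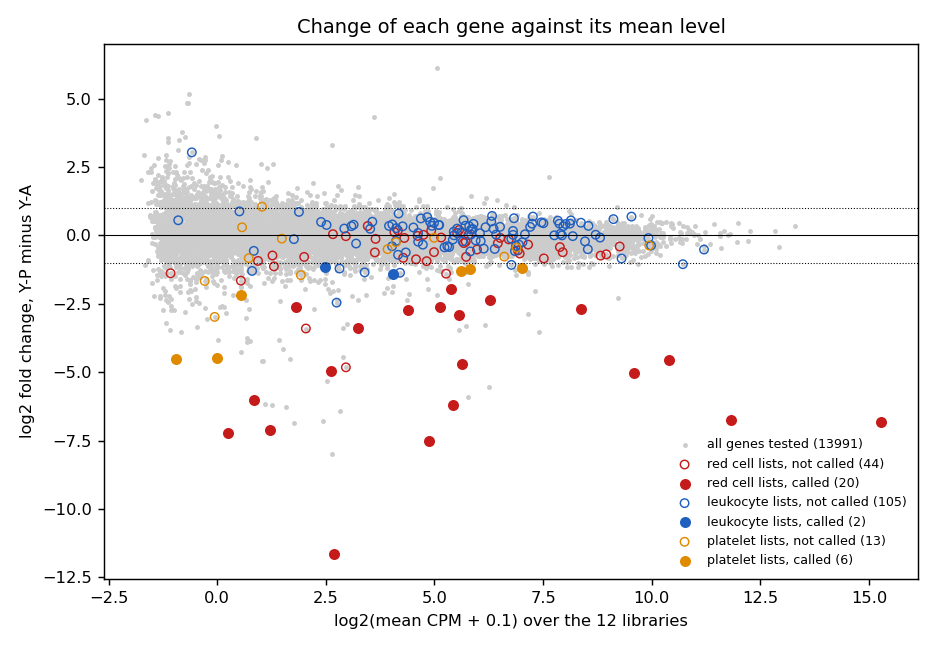
Log2 fold change of Y-P against Y-A (vertical axis) against log2(mean CPM + 0.1) over the 12 libraries (horizontal axis) for each tested gene, with dotted lines at changes of -1 and 1. The 20 called red cell genes (filled red) lie below -1. They run from the alpha chain gene, with a mean of 79105 CPM in Y-A, to genes of low level such as ACKR1, with 2.17 CPM. The leukocyte genes (blue) lie mostly within the dotted lines, with 2 called. The lowest point is DMTN, which had no count in Y-P, so its position is set by the fit and is no measured fold.

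Hemoglobin transcripts were a far smaller share of the counts in Y-P than in Y-A. Which of the 2 stages lay nearer the usual level of yak blood was not tested. Between 3.10% and 16.7% of a Y-A library (median 5.64%) fell on genes with the hemoglobin complex annotation, against 0.0272% to 0.376% of a Y-P library (median 0.0463%). The lowest Y-A library, replicate 2, thus lay above the highest Y-P library, replicate 6 (95% Wilson intervals 3.09% to 3.10% and 0.374% to 0.378%, covering counting error only). In bulk blood, fewer cells of a type and less RNA per cell cannot be told apart.

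The table lists 6 hemoglobin genes, of which 4 passed the count filter, and all 4 were lower. The alpha chain gene ENSBGRG00000014632, at chromosome 26:47734389-47738056 between HBQ1 and HBM and named here from its deposited KEGG entry, had 27971, 55076 and 170312 CPM in Y-A. In Y-P it had 225, 395 and 3193 CPM. It fell by 6.83 ± 0.52 on the log2 scale (114-fold, adjusted p = 0.000711), in 6 of 6 pairs and with no overlap between groups. The beta chain gene ENSBGRG00000011277, at chromosome 13:37179477-37180986, had 1569, 5552 and 18459 CPM in Y-A and 16.5, 34.5 and 234 CPM in Y-P. Its log2 fold change was -6.73 ± 0.53 (adjusted p = 0.000711). Both chains make up the adult tetramer, and their changes differed by less than either SE.

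HBM, the mu chain of the alpha cluster, had 22.1, 57.1 and 100.6 CPM in Y-A and at most 0.744 CPM in Y-P (log2 fold change -7.52 ± 0.59, adjusted p = 0.000711). HBQ1, the theta chain, had 2.53, 3.88 and 13.8 CPM in Y-A and 0.354, 0.801 and 1.41 CPM in Y-P (log2 fold change -2.60 ± 0.58, adjusted p = 0.0438). The HBQ1 call was lost in every fit that left out a replicate number, whereas the other 3 were kept in all 6. ENSBGRG00000014765, also in the alpha cluster, was not tested. It had 6 to 1124 counts in Y-A, with the highest in replicate 6, and 0 to 3 in Y-P. The counting rule for reads shared by near-identical globin copies was not given in the sources used here, so the division of reads among the chains is uncertain.

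**Figure D2:**
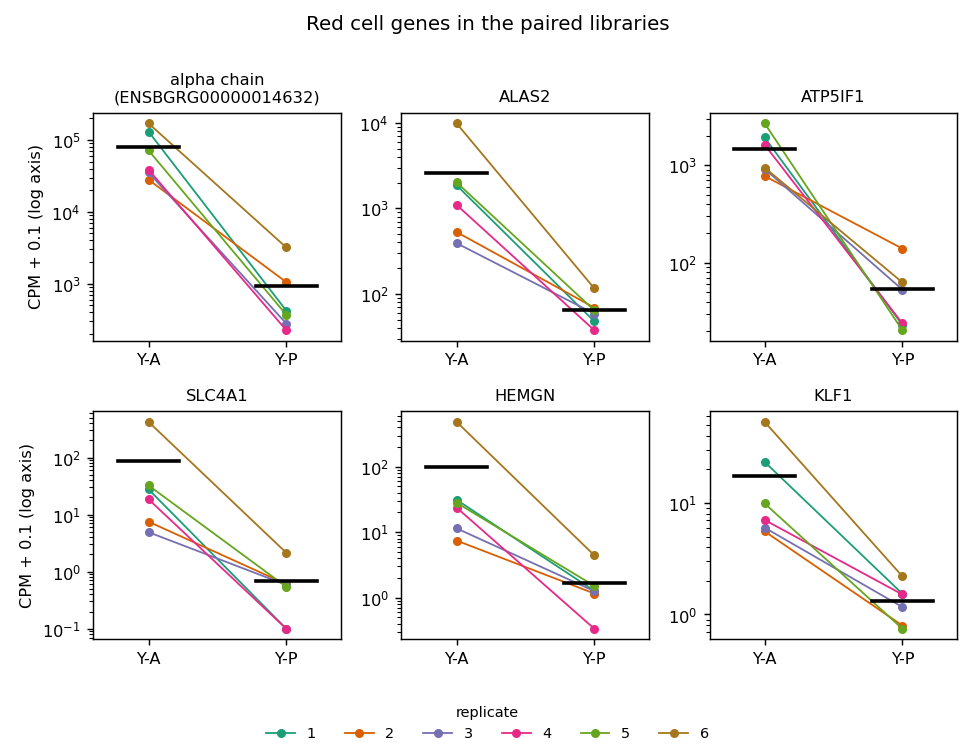
Levels of 6 red cell genes as CPM + 0.1 on log axes in Y-A and Y-P, with a line joining libraries of the same replicate number and a black bar at the group mean. Each line descends, and in each panel the lowest Y-A library lies above the highest Y-P library, for example 392 against 116 CPM for ALAS2. Y-A replicate 6 is the highest library in 5 of the 6 panels, ATP5IF1 being the exception.

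In heme synthesis, 5 of 13 tested genes were lower and 0 higher, with a median change of -0.28 for the list, and 2 to 4 were called when a replicate number was left out. ALAS2, the red cell form of the first and rate-limiting enzyme of heme synthesis, had 392, 1480 and 9855 CPM in Y-A and 37.5, 61.3 and 116 CPM in Y-P. It fell by 4.56 ± 0.51 on the log2 scale (adjusted p = 0.00332), and its change ranged from -4.90 to -4.15 when any replicate number was left out. ATP5IF1, the inhibitor of mitochondrial ATP synthase that is also needed for heme synthesis, had 776, 1285 and 2694 CPM in Y-A and 20.2, 38.4 and 140 CPM in Y-P. Its log2 fold change was -5.03 ± 0.64 (adjusted p = 0.0057), and the groups did not overlap for either gene.

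Also called were SLC25A39 (log2 fold change -2.69 ± 0.57, adjusted p = 0.0389), a mitochondrial glutathione carrier, and ALAD (-1.97 ± 0.45, adjusted p = 0.0451), the second enzyme of heme synthesis. SLC25A39 ran from 148 to 1249 CPM in Y-A and from 47.7 to 97.5 CPM in Y-P. In Y-A its levels spread over a wide range, with replicates 1 and 6 highest, and the call was kept in 1 of 6 fits without a replicate number. The ALAD call was kept in 0 of 6. The list held 8 genes that did not pass, with changes from -0.94 (UROD, adjusted p = 0.087) to 0.18. They include the later enzymes of the pathway.

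Among membrane and skeleton proteins, 6 of 12 tested genes were lower, and the median change was -4.88. Without replicate 6 the calls went to 3, and limma on log2(FPKM + 1) called 3 with a median of -0.88, where the pseudocount shrinks changes of low genes, while DESeq2 called 9. SLC4A1, the anion exchanger band 3, had 4.81, 23.0 and 422 CPM in Y-A and 0, 0.465 and 2.04 CPM in Y-P (log2 fold change -6.21 ± 0.78, adjusted p = 0.00531). DMTN, the actin-bundling protein dematin, had 1.39, 4.43 and 53.7 CPM in Y-A and no count in any Y-P library. The decrease was called (adjusted p = 0.00332). The mean DMTN level in Y-A was 159 times the floor of 3 counts per Y-P library. Replicate 6 raised that mean, and the other Y-A libraries lay at 1.39 to 10.3 CPM.

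The blood group proteins KEL, ACKR1 and ICAM4 were also lower (adjusted p = 0.00212, 0.00395 and 0.00511). Their Y-A levels were low, at medians of 2.62, 1.64 and 2.14 CPM. In Y-P, KEL had 0 to 11 counts, ACKR1 0 to 3 and ICAM4 0 to 11, with the 11 counts in replicate 6 in both cases. AQP1, the water channel, chosen after its values were seen, had 0.543, 2.76 and 59.3 CPM in Y-A and at most 0.436 CPM in Y-P (adjusted p = 0.0192).

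SPTB, the beta spectrin, and EPB41, a protein that ties spectrin to actin, did not pass. SPTB had 5.26, 8.21 and 64.1 CPM in Y-A and 5.06, 7.47 and 9.81 CPM in Y-P (log2 fold change -0.62 ± 0.37, adjusted p = 0.354). EPB41 had 422 to 2001 CPM in Y-A and 347 to 564 CPM in Y-P (log2 fold change -0.40 ± 0.23, adjusted p = 0.342). In both, Y-A replicate 6 stood far above the other Y-A libraries, which lay at 5.26 to 10.04 CPM for SPTB and 422 to 586 CPM for EPB41, and the groups overlapped.

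Of the 7 tested genes among erythroid transcription factors and the erythropoietin receptor (median -0.69), only KLF1 was called. KLF1 activates adult globin, heme and membrane genes. It had 5.46, 8.36 and 53.2 CPM in Y-A and 0.646, 1.24 and 2.098 CPM in Y-P (log2 fold change -3.40 ± 0.34, adjusted p = 0.00284). GATA1 (log2 fold change -0.78 ± 0.15, adjusted p = 0.0265) and NFE2 (-0.69 ± 0.14, adjusted p = 0.0331) passed the adjusted p but not the fold. Both are also used by megakaryocytes, and GATA1 by eosinophils and basophils. GATA1 had 37.7 to 95.4 CPM in Y-A and 31.1 to 51.3 CPM in Y-P, and was lower in 6 of 6 pairs. TAL1 had 13.2 to 38.5 CPM and 4.80 to 20.5 CPM and did not pass (log2 fold change -0.82 ± 0.32, adjusted p = 0.171).

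Late red cell maturation had 4 called genes among 22, with a median change of -0.61. HEMGN, a nuclear protein of erythroid precursors, had 7.35, 25.9 and 485 CPM in Y-A and 0.235, 1.17 and 4.33 CPM in Y-P (log2 fold change -4.70 ± 0.55, adjusted p = 0.00395). TRIM58, a ubiquitin ligase that acts when the nucleus is expelled, changed by -2.72 ± 0.44 (adjusted p = 0.0191), BLVRB, biliverdin reductase B, by -2.37 ± 0.42 (adjusted p = 0.0226), and TMCC2 by -2.61 ± 0.55 (adjusted p = 0.0389). When each replicate number was left out in turn, HEMGN kept its call 6 times, TRIM58 4 times, BLVRB 3 times and TMCC2 once.

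STRADB, chosen after its values were seen, had 294 CPM in Y-A replicate 6 and 13.4 to 25.6 CPM in the other Y-A libraries, against 8.11 to 13.8 CPM in Y-P, and did not pass (log2 fold change -1.40 ± 0.45, adjusted p = 0.111). The 17 genes of the list that missed the adjusted p, STRADB among them, had changes from -1.40 to 0.35. Of the 6 tested genes of the iron uptake list, which also holds an exporter, 0 were called in edgeR and 1 in DESeq2. An unadjusted p under 0.05 was found for 4 of them, and the median was -0.54. SLC40A1, the iron exporter ferroportin, had 490 to 679 CPM in Y-A and 183 to 460 CPM in Y-P, without overlap (log2 fold change -0.74 ± 0.17, adjusted p = 0.0459).

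**Figure D3:**
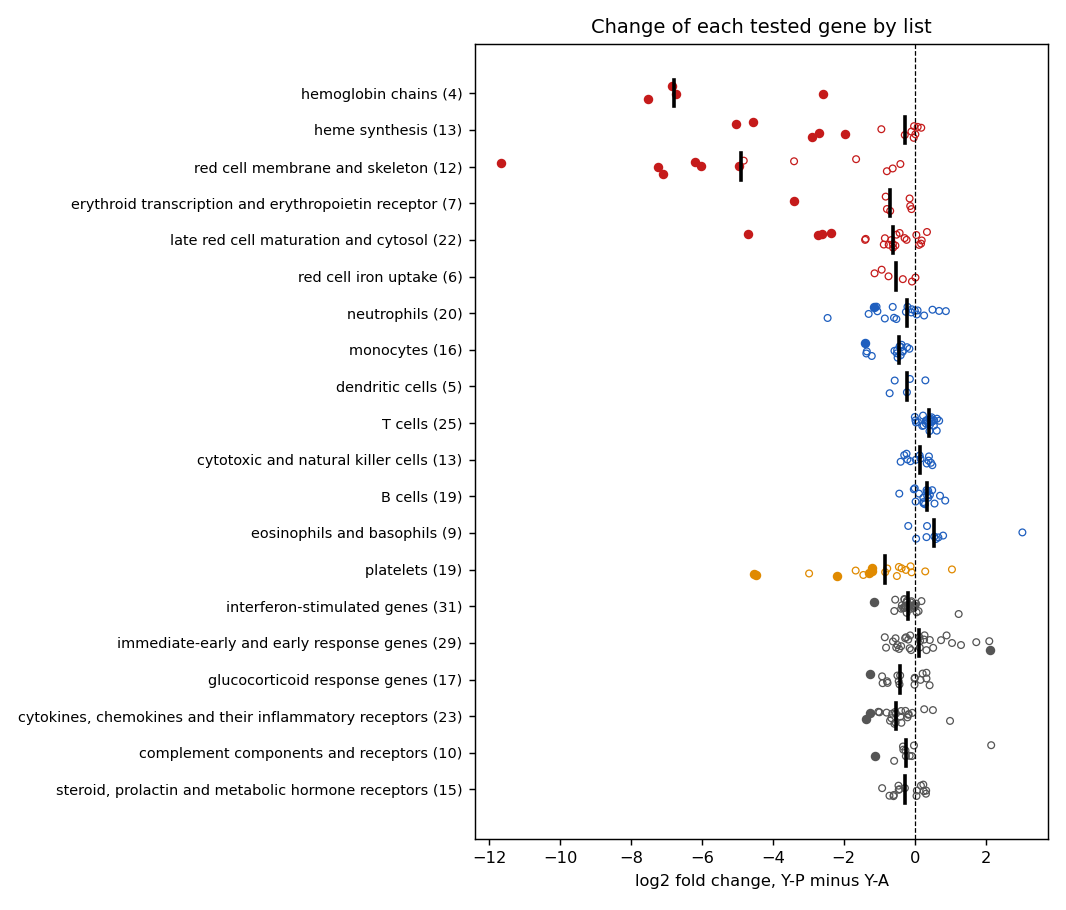
Log2 fold change of Y-P against Y-A (horizontal axis) for each tested gene of 20 lists (vertical axis, number tested in parentheses), with called genes filled, a black bar at the median of the list and a dashed line at the median of all genes tested. Hemoglobin (median -6.78) and membrane genes (-4.88) lie farthest left, platelets next (-0.83), and the T cell and B cell medians lie to the right of the dashed line (0.42 and 0.33).

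The 20 genes outside these lists that fell by at least 8-fold included ARG1, PGAP6 and REEP1. ARG1, the arginase of the urea cycle, had the smallest adjusted p of all genes. It had 29.8, 101.3 and 481 CPM in Y-A and 0.510, 2.14 and 9.92 CPM in Y-P (log2 fold change -5.52 ± 0.32, adjusted p = 0.000146). Its locus at chromosome 10:19036258-19062347 overlaps MED23 on the opposite strand, and MED23, at 68.6 to 83.8 CPM in Y-A and 60.7 to 88.7 CPM in Y-P, did not share the decrease (log2 fold change 0.00, adjusted p = 0.99).

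PGAP6 changed by -3.52 ± 0.41 (adjusted p = 0.00395) and MARCHF2, a membrane-bound ubiquitin ligase, by -2.86 ± 0.35 (adjusted p = 0.00493). PGAP6 had 93.2, 320 and 631 CPM in Y-A and 18.1, 20.7 and 27.9 CPM in Y-P. MARCHF2 had 82.5, 161 and 569.5 CPM in Y-A and 20.3, 24.1 and 46.2 CPM in Y-P. Both genes were separated without overlap and were called in all 6 fits without a replicate number.

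REEP1, an endoplasmic reticulum shaping protein, had 4.78 to 25.4 CPM in Y-A and no count in Y-P except 20 in replicate 6 (adjusted p = 0.00207). The unnamed genes ENSBGRG00000016947 (log2 fold change -5.91 ± 0.52, adjusted p = 0.00151) and ENSBGRG00000026299 (-6.86 ± 0.73, adjusted p = 0.00284) fell likewise. ENSBGRG00000016947 overlaps ENSBGRG00000017067 on the same strand, so their counts may share reads. STRIP2 changed by less, at -1.78 ± 0.18 (adjusted p = 0.00284), with 5.98 to 11.6 CPM in Y-A and 1.62 to 3.48 CPM in Y-P.

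Platelet genes were the next group to fall. Of 19 tested, 6 were called lower and 0 higher, and the median change was -0.83. DESeq2 called 9, but limma on log2(FPKM + 1) called only 1. The calls went to 4 without replicate 1, to 3 without replicate 2 or 3 and to 2 without replicate 4, 5 or 6. TUBB1, the beta tubulin of platelets and megakaryocytes, had 104, 187 and 225 CPM in Y-A and 60.4, 78.4 and 94.7 CPM in Y-P (log2 fold change -1.21 ± 0.13, adjusted p = 0.00332). MPIG6B, an inhibitory receptor of the same lineage, had 42.0 to 93.0 CPM in Y-A and 19.4 to 37.6 CPM in Y-P (-1.29 ± 0.18, adjusted p = 0.00954). Neither gene overlapped between groups, and both were called in all 6 fits without a replicate number.

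GNG11 (log2 fold change -1.21 ± 0.26, adjusted p = 0.0389) and MMRN1 (-2.19 ± 0.41, adjusted p = 0.0269) were also called, and kept the call in 1 and 2 of 6 fits without a replicate number. So were GP1BA and CAVIN2, 2 genes of low level chosen after their values were seen, at 0.915 to 2.64 and 0.400 to 1.21 CPM in Y-A and at most 0.232 and 0.162 CPM in Y-P (adjusted p = 0.0442 and 0.0449), both calls being kept in 0 of 6. ITGA2B, the integrin of the fibrinogen receptor, had 118 to 164 CPM and 79.4 to 127 CPM (log2 fold change -0.45 ± 0.11, adjusted p = 0.0539). The summed level of the list was 1652 to 1871 CPM in Y-A and 984 to 1785 CPM in Y-P, where replicate 3 lay within the Y-A range. Most of that sum was F13A1, at 1381 CPM in Y-P replicate 3 and 912 to 1283 CPM in Y-A. The sum therefore does not speak for the list as a whole. VWF, the clotting factor stored by platelets and endothelium and no member of the list, had 19.3, 29.2 and 65.3 CPM in Y-A and 3.04, 7.12 and 10.7 CPM in Y-P (log2 fold change -2.35 ± 0.24, adjusted p = 0.00284).

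Leukocyte genes moved by far less. The medians of the T cell, B cell, cytotoxic, and eosinophil and basophil lists lay above the median of all genes, and those of the neutrophil, monocyte and dendritic cell lists below it. All 25 tested T cell genes had a fitted change above 0, beside 50.6% of all genes tested, and their median change was 0.42. With no block, 23 of 25 were above 0. None was called in edgeR or DESeq2, 17 had an unadjusted p under 0.05, and only CD3G passed the adjusted p (log2 fold change 0.69 ± 0.12, adjusted p = 0.0226). CD3G, a chain of the T cell receptor complex, had 80.8, 120 and 138 CPM in Y-A and 142, 176 and 296 CPM in Y-P, without overlap.

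LEF1, a transcription factor of naive T cells, had 248, 278 and 296 CPM in Y-A and 330, 387 and 435 CPM in Y-P (log2 fold change 0.46 ± 0.12, adjusted p = 0.0633). It did not overlap between groups but missed the adjusted threshold, as did IL7R (0.55 ± 0.13, adjusted p = 0.0552), CD5 (0.48 ± 0.12, adjusted p = 0.0578) and CD4 (0.42 ± 0.12, adjusted p = 0.0784). All 4 were higher in 6 of 6 pairs. The summed level of the T cell list was 2698 to 3047 CPM in Y-A and 3143 to 4561 CPM in Y-P, so every Y-P library lay above every Y-A library. The hemoglobin share was lower in every Y-P library, and the T cell median was 0.44 with the red cell genes removed before scaling. The cause of the T cell change was not tested.

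Among B cell genes, 17 of 19 had a fitted change above 0, with a median of 0.33. None was called in edgeR or DESeq2, and 8 had an unadjusted p under 0.05. CD79B, a signaling chain of the B cell receptor chosen after its values were seen, had 57.8, 121 and 211 CPM in Y-A and 70.1, 160 and 276 CPM in Y-P (log2 fold change 0.43 ± 0.15, adjusted p = 0.141). Its groups overlapped, it was higher in 5 of 6 pairs, and replicates 5 and 6 were the lowest at both stages. Its partner CD79A had 116 to 567.6 and 172 to 784 CPM (0.35 ± 0.24, adjusted p = 0.43). PAX5, a B cell transcription factor also chosen after its values were seen, lay on the other side of 0 (log2 fold change -0.44 ± 0.17, adjusted p = 0.162).

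Cytotoxic and natural killer genes lay near the median of all genes, with 8 of 13 above 0 and a median of 0.14. EOMES had the smallest p of that list, at 11.7 to 25.5 CPM in Y-A and 10.8 to 16.6 CPM in Y-P (log2 fold change -0.40 ± 0.13, adjusted p = 0.114). In the eosinophil and basophil list 8 of 9 genes were above 0, with a median of 0.55. FCER1A, the IgE receptor of basophils, had 5.60 to 23.4 CPM in Y-A and 18.2 to 25.4 CPM in Y-P (0.80 ± 0.24, adjusted p = 0.0918), and ALOX15, the lipoxygenase of eosinophils, 220 to 961 and 312 to 871 CPM (0.60 ± 0.30, adjusted p = 0.27). No gene of these 2 lists was called in edgeR, where 3 and 2 had an unadjusted p under 0.05, and DESeq2 called 0 and 1.

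All 16 tested monocyte genes had a fitted change below 0, with a median of -0.45. Only C1QA, a chain of the complement protein C1q, was called. It had 11.96, 23.7 and 39.4 CPM in Y-A and 5.59, 7.84 and 17.4 CPM in Y-P (log2 fold change -1.39 ± 0.32, adjusted p = 0.0476). It was higher in Y-P in replicate 2, and the call was kept in 1 of 6 fits without a replicate number. C1QC had 6.95 to 25.2 and 2.82 to 8.69 CPM (log2 fold change -1.35 ± 0.34, adjusted p = 0.0581). MS4A7 passed the adjusted p alone (-0.57 ± 0.12, adjusted p = 0.0378). CSF1R, the receptor for macrophage colony-stimulating factor, had 353, 406 and 529.6 CPM in Y-A and 223, 296 and 426 CPM in Y-P, and was lower in 6 of 6 pairs (-0.51 ± 0.12, adjusted p = 0.0546).

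The neutrophil list was mixed. Of 20 tested genes 7 had a fitted change above 0 and 13 below, with a median of -0.23. OLFM4, a granule protein of a neutrophil subset, was called (log2 fold change -1.16 ± 0.26, adjusted p = 0.0433) at 4.06, 5.37 and 16.7 CPM in Y-A and 1.31, 2.55 and 6.27 CPM in Y-P. The groups overlapped and the call was lost in every fit that left out a replicate number. CSF3R, the receptor for granulocyte colony-stimulating factor, had 2216, 2808 and 3275 CPM in Y-A and 1610, 1984 and 2164 CPM in Y-P without overlap, yet missed the threshold (-0.52 ± 0.13, adjusted p = 0.0546).

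LTF, the granule protein lactoferrin, had 2.00 to 22.4 and 0.736 to 4.33 CPM (log2 fold change -2.46 ± 0.60, adjusted p = 0.0549). The calgranulin S100A12 varied as much among libraries as between groups, at 893 to 4614 CPM in Y-A and 484 to 2873 CPM in Y-P, where replicate 3 was highest (-1.05 ± 0.38, adjusted p = 0.146). Its neighbour S100A9, chosen after its values were seen, had 383 to 1349 and 212 to 959 CPM (-0.84 ± 0.27, adjusted p = 0.109). MMP9, the gelatinase of neutrophil granules, had 37.1 to 108 and 37.8 to 130 CPM (0.08 ± 0.22, adjusted p = 0.858). In the dendritic cell list (median -0.22) 0 of 5 genes were called in edgeR or DESeq2 and 1 had an unadjusted p under 0.05, FLT3, a cytokine receptor of dendritic cell precursors (-0.71 ± 0.21, adjusted p = 0.0864).

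**Figure D4:**
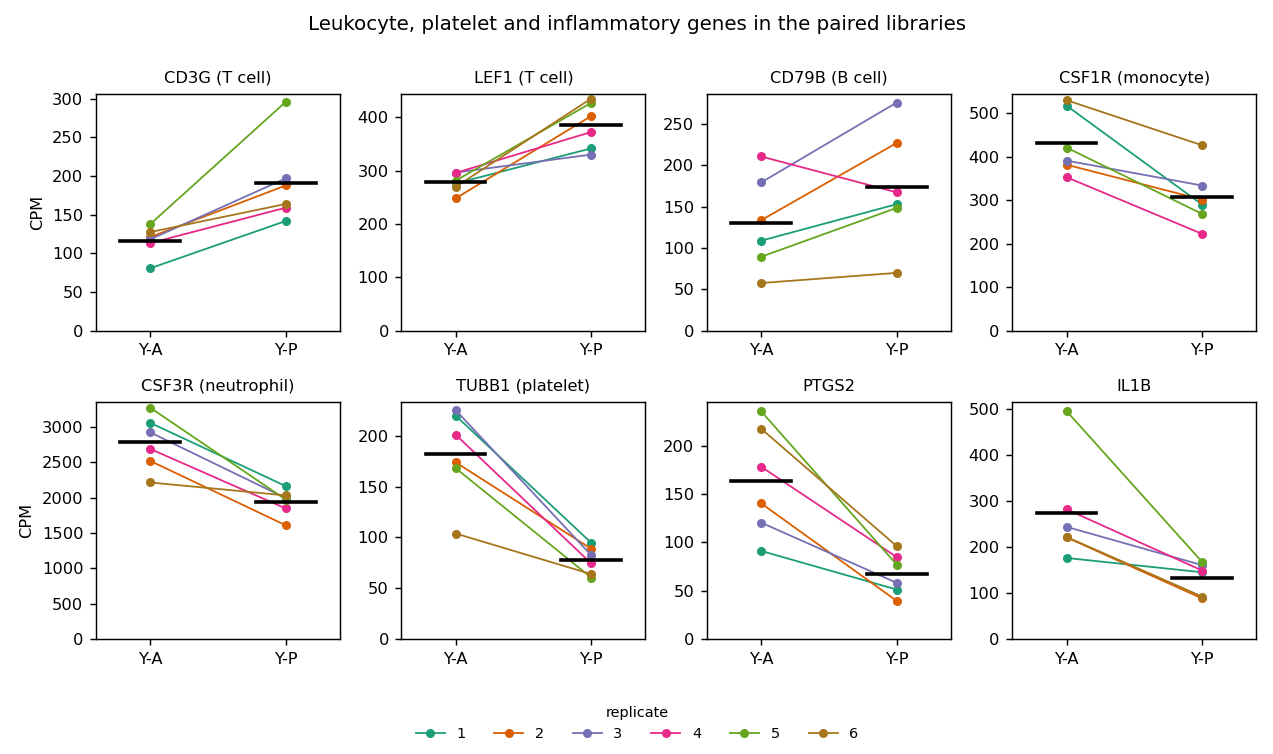
CPM of 8 genes in Y-A and Y-P on linear axes that start at 0, with a line joining libraries of the same replicate number and a black bar at the group mean. For CD3G and LEF1 each line slopes upward, for CD79B each except that of replicate 4, and for CSF1R, CSF3R, TUBB1, PTGS2 and IL1B each slopes downward. Of the 8, TUBB1 and PTGS2 were called.

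CD101 and GAB2, members of no list, fell moderately but evenly across the pairs. CD101, an immunoglobulin-like receptor of myeloid and T cells, had 395, 475 and 821 CPM in Y-A and 163, 227 and 298 CPM in Y-P (log2 fold change -1.16 ± 0.12, adjusted p = 0.00284). GAB2, a docking adaptor of cytokine and antigen receptor signaling, had 215, 241 and 295 CPM in Y-A and 97.0, 117 and 142 CPM in Y-P (-1.04 ± 0.11, adjusted p = 0.00284). Neither overlapped between groups, and they were called in 6 and 4 of 6 fits without a replicate number.

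Inflammatory genes lay mostly below 0. Of 23 tested cytokines, chemokines and inflammatory receptors, 2 were called, 5 passed the adjusted p and 20 had a fitted change below 0, with a median of -0.53. PTGS2, the inducible prostaglandin synthase, had 91.2, 159 and 236 CPM in Y-A and 39.5, 67.6 and 96.1 CPM in Y-P (log2 fold change -1.26 ± 0.15, adjusted p = 0.00395). It was lower in 6 of 6 pairs, although the highest Y-P library lay above the lowest Y-A library, and was called in every fit that left out a replicate number.

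IL1A, chosen after its values were seen, was the other call, at 4.36 to 20.0 CPM in Y-A and 1.49 to 4.28 CPM in Y-P (log2 fold change -1.38 ± 0.31, adjusted p = 0.0446). IL1B had 176, 233 and 495 CPM in Y-A and 88.2, 147 and 167 CPM in Y-P, without overlap, and its change just missed the fold (-0.99 ± 0.17, adjusted p = 0.0224). NLRP3, the inflammasome sensor upstream of interleukin-1 release, had 43.2, 64.6 and 83.4 CPM in Y-A and 29.5, 35.99 and 41.6 CPM in Y-P (-0.79 ± 0.13, adjusted p = 0.0179). IL18RAP, a receptor chain for interleukin-18, also passed the adjusted p alone (-0.66 ± 0.14, adjusted p = 0.0366). Among 10 complement genes (median -0.26) C3AR1, the receptor for C3a, was called (-1.13 ± 0.25, adjusted p = 0.0446), in 0 of 6 fits without a replicate number.

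Genes known to respond to glucocorticoids had 1 call, 4 genes past the adjusted p and a median of -0.41 over 17 tested, or -0.08 with no block. Of the 17, 6 had a fitted change above 0 and 11 below. The 13 that missed the adjusted p ran from -0.77 to 0.42. FKBP5, TXNIP and CXCR4 were among them (adjusted p = 0.587, 0.988 and 0.621). KLF9, a transcription factor, had 6.63, 8.55 and 16.5 CPM in Y-A and 2.52, 3.79 and 5.06 CPM in Y-P (log2 fold change -1.27 ± 0.22, adjusted p = 0.0208). BCL6, a transcriptional repressor, had 257, 300.1 and 492 CPM in Y-A and 143, 193 and 234 CPM in Y-P (-0.78 ± 0.13, adjusted p = 0.019). PDK4, the kinase that shuts pyruvate out of oxidation, had 48.1, 59.3 and 74.6 CPM in Y-A and 19.4, 35.0 and 41.2 CPM in Y-P (-0.91 ± 0.17, adjusted p = 0.029). The groups did not overlap for these 3 genes. IL1R2, the decoy receptor for interleukin-1, changed by -0.92 ± 0.21 (adjusted p = 0.0446), with 125 CPM in Y-A replicate 5 against 15.96 to 42.3 CPM in the other Y-A libraries.

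In the list of steroid, prolactin and metabolic hormone receptors 0 of 15 were called in edgeR or DESeq2, 6 had an unadjusted p under 0.05, and the median was -0.28. IGF1R, the receptor for insulin-like growth factor, had 60.7 to 88.5 CPM in Y-A and 22.02 to 56.7 CPM in Y-P (log2 fold change -0.92 ± 0.14, adjusted p = 0.0147). RARA, a retinoic acid receptor, had 733 to 914 CPM in Y-A and 469 to 641 CPM in Y-P (-0.71 ± 0.13, adjusted p = 0.0237). Both were separated without overlap. GLP1R, the receptor for glucagon-like peptide, had 1.79 to 4.29 and 1.61 to 5.33 CPM (0.05 ± 0.27, adjusted p = 0.931). CD36, the scavenger and fatty acid receptor, had 0.915 to 3.16 and 0.216 to 1.69 CPM (-1.33 ± 0.45, adjusted p = 0.125).

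Of 31 interferon-stimulated genes only PARP14 was called (log2 fold change -1.14 ± 0.23, adjusted p = 0.0331). It had 296, 330 and 595 CPM in Y-A and 133, 159 and 290.4 CPM in Y-P, where replicate 4 was highest. The call was kept in 1 of 6 fits without a replicate number. The summed level of the list was highest in Y-A replicates 1 and 5 and in Y-P replicate 4, at 14697, 11901 and 12220 CPM, and 5422 to 7232 CPM in the other 9 libraries in both stages. EIF2AK2, the RNA-dependent kinase, had 185 to 484 and 125 to 312 CPM (-0.58 ± 0.25, adjusted p = 0.215). The median of the list was -0.18.

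The higher genes were fewer and changed less. The higher gene with the smallest adjusted p was ENSBGRG00000007955, which has no name in the table, at 2.08 to 4.75 CPM in Y-A and 7.08 to 13.8 CPM in Y-P (log2 fold change 1.49 ± 0.22, adjusted p = 0.0132). PRPF40B, a splicing factor, had 10.02, 12.5 and 14.1 CPM in Y-A and 19.2, 25.01 and 40.3 CPM in Y-P (1.06 ± 0.16, adjusted p = 0.0133). Both were called in 5 of 6 fits without a replicate number. The unnamed ENSBGRG00000009945 was called in 4 of them (1.06 ± 0.16, adjusted p = 0.0144).

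BLOC1S4, a subunit of a complex for lysosome-related organelles, rose by 1.29 ± 0.22 on the log2 scale (adjusted p = 0.0224) and CDH3, P-cadherin, by 1.22 ± 0.22 (adjusted p = 0.0227). ADAMTS10, a secreted metalloproteinase, had 37.9, 67.1 and 77.2 CPM in Y-A and 103, 133 and 179.6 CPM in Y-P (1.12 ± 0.20, adjusted p = 0.0236). TRIB3, a pseudokinase of the stress response, rose by 1.05 ± 0.19 (adjusted p = 0.026) and MYO5C, a myosin motor, by 1.44 ± 0.27 (adjusted p = 0.0265). All were higher in 6 of 6 pairs, but ADAMTS10, TRIB3 and MYO5C kept the call in only 1 of 6 fits without a replicate number, CDH3 in 2 and BLOC1S4 in 3.

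FOS, an immediate-early transcription factor, was the only gene called in edgeR among 29 of the early response list (median 0.13), of which DESeq2 called 3. It had 32.7, 40.2 and 70.8 CPM in Y-A and 55.9, 193 and 1121 CPM in Y-P (log2 fold change 2.13 ± 0.49, adjusted p = 0.0469), and was higher in 6 of 6 pairs. Y-P replicates 2, 6 and 5, at 1121, 444 and 294 CPM, lay above the others, and the groups overlapped. The call was kept in 1 of 6 fits without a replicate number. FOSB (1.74 ± 0.50, adjusted p = 0.084), RGS1 (2.102 ± 0.54, adjusted p = 0.0617) and the phosphatase DUSP1 (1.05 ± 0.43, adjusted p = 0.187) shared that unevenness, with their highest levels in Y-P replicates 2 and 6.

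COL1A2, a chain of type I collagen and the only gene higher by at least 8-fold, was chosen after its values were seen. It had 0, 0.415 and 14.7 CPM in Y-A and 0.363, 23.1 and 35.9 CPM in Y-P (log2 fold change 4.33 ± 0.90, adjusted p = 0.0369). It was higher in 6 of 6 pairs, yet without the block the COL1A2 log2 fold change was 2.75 (adjusted p = 0.207). COL3A1 and DCN, other fibroblast genes that are in no list, had at most 2.01 and 0.552 CPM at both stages. The source of the COL1A2 transcripts was not tested.

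**Figure D5:**
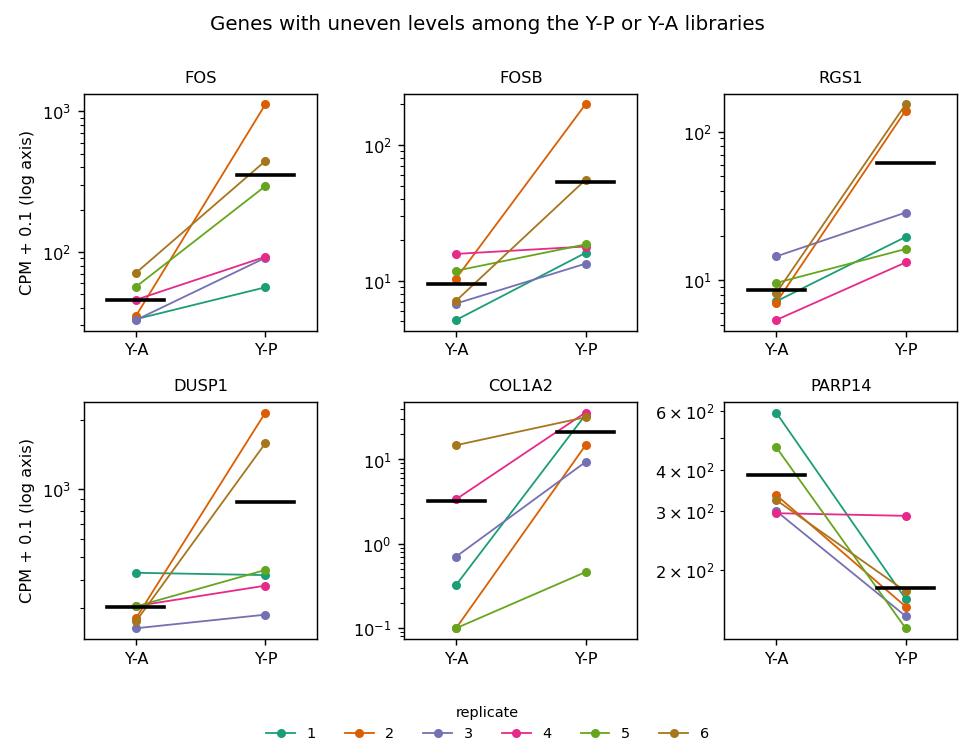
Levels of 6 genes as CPM + 0.1 on log axes in Y-A and Y-P, with a line joining libraries of the same replicate number and a black bar at the group mean. FOS, FOSB, RGS1 and DUSP1 are highest in Y-P replicates 2 and 6. COL1A2 starts under 1 CPM in 4 of the 6 Y-A libraries, and PARP14 is at 290.4 CPM in Y-P replicate 4.

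General cell processes differed little. No call was made among 237 ribosome, 56 proteasome or 118 antigen presentation genes in edgeR, where 29, 7 and 25 had an unadjusted p under 0.05 and DESeq2 called 1, 0 and 1. In edgeR 1 call was made among 130 genes of oxidative phosphorylation and 1 among 134 of the cell cycle, where DESeq2 called 3 and 4. The medians lay between -0.10 and 0.15. The summed ribosome level nevertheless varied widely among Y-P libraries, from 34327 CPM in replicate 1 to 85381 and 96200 CPM in replicates 2 and 3.

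The paired and the unpaired fit called 158 and 161 genes (1.13% and 1.15%), 128 of them shared. Leaving out a replicate number lowered the calls to between 47 (without replicate 6) and 123 (without replicate 1), and the red cell list calls to between 11 (without replicate 5) and 18 (without replicate 2 or 4). The leukocyte list calls went to between 0 and 3. Removing the red cell genes before scaling left 112 calls, all shared with the 158.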

How the data were processed

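Whole-blood libraries (poly(A), dUTP, paired-end) of 6 Y-A and 6 Y-P samples were analysed. Per the labels and the methods the authors trimmed reads with cutadapt 1.9, aligned them with HISAT2 2.2.1 to the *Bos grunniens* genome (named only by its Ensembl version), and assembled and quantified with StringTie 2.1.6 and ballgown. The authors deposited whole-number counts per gene and FPKM values. How the counts were made, and whether by strand, was not given in the sources used here.

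Counts were tested in R 4.3.3 with edgeR 4.0.16 (filterByExpr, TMM, two-sided quasi-likelihood test, replicate number as block, Benjamini-Hochberg over all 13991 genes). The block rests on the methods, by which the same cows were tracked. That a replicate number marks the same cow at both stages is not stated there or in the labels. Same-numbered deviations from the group means correlated at 0.158, 0.125, 0.269, -0.0624, 0.00242 and 0.404 for replicates 1 to 6, so not every pair deviated together. The alternatives were DESeq2 1.42.0, limma 3.58.1 on log2(FPKM + 1) and log2(FPKM + 0.1), other scalings, no filter, no block and left-out libraries. The scripts were tested on simulated data. SEs follow from the F statistic. Gene positions were read from the deposited table, and genes were tested by identifier. Figures were drawn with matplotlib 3.10.9.

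The members and the 25 gene lists were chosen with earlier results of these data known. Genes were named by rule: the 15 higher and 15 lower calls of smallest adjusted p with 1 direction in every fit without a replicate number, the hemoglobin and heme genes, in each other list the 4 of smallest p and the 4 of highest level, and the genes the study names. Not all are printed, and a few named genes are not reported here.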

Additional observations from a re-analysis of the deposited data

Results flagged for a closer look

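Libraries at the end of their group's range were looked for in 244 sets of 6 libraries (named genes, list sums and the hemoglobin share), by the gap to the next library against the range (Dixon's ratio above its 95% critical value). It was exceeded in 53 sets. Chance alone gives about 1 in 20 for normally distributed values, but the ratio was taken on untransformed levels. The 1 in 20 is therefore no measure of an excess here. Genes of 1 lineage move together, so the 53 sets are not independent.

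Y-A replicate 6 had 19 of them. It was the highest Y-A library for ALAS2 (9855 CPM), DMTN (53.7), SLC4A1 (422), KEL (14.7), ICAM4 (10.9), AQP1 (59.3), EPB41 (2001), SPTB (64.1), KLF1 (53.2), HEMGN (485), TRIM58 (142), TMCC2 (288), STRADB (294), ARG1 (481) and COL1A2 (14.7). The same held for the summed levels of heme synthesis (12790 CPM), of red cell membrane and skeleton (2823 CPM) and of late red cell maturation (4496 CPM), while its ribosome sum was the lowest of Y-A (33171 CPM).

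Y-P replicate 6 had 14. It was the highest Y-P library for the hemoglobin share of counts (0.376%), the hemoglobin sum (3428 CPM), ENSBGRG00000014632 (3193 CPM), ENSBGRG00000011277 (234), SLC4A1 (2.04), KEL (0.300), ICAM4 (0.300), HEMGN (4.33), ARG1 (9.92), REEP1 (0.545), MARCHF2 (46.2), FLT3 (27.3), RARA (641) and the sum of the hormone receptor list (1165 CPM). Replicate 6 thus stood highest for SLC4A1, KEL, ICAM4 and HEMGN at both stages, but not for all red cell genes. In Y-P it had the highest sums of hemoglobin and of red cell membrane and skeleton (576 CPM). Its heme synthesis sum was 475 CPM against 594 CPM in replicate 2. Its late red cell maturation sum was 1073 CPM against 1139 CPM in replicate 5. Leaving replicate 6 out kept 12 of the 20 red cell list calls.

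Y-A replicate 1 was highest for DUSP1 (428 CPM), KLF9 (16.5), C3AR1 (22.4), MMP9 (108) and the sum of the hormone receptor list (1501 CPM). Y-A replicate 5 was highest for MGAM (100.9 CPM), IL1R2 (125), IL1B (495), IL18RAP (102) and IL1A (20.0), and Y-A replicate 4 for MYO5C (4.93) and ALOX15 (961). In Y-P, replicate 2 was highest for ATP5IF1 (140 CPM), C1QA (17.4), FOS (1121) and FOSB (199.7), replicate 4 for PARP14 (290.4) and the interferon-stimulated sum (12220 CPM), and replicate 5 for ACKR1 (0.0605) and CD3G (296).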

How the results depend on the processing

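Counts of calls moved by over 1.5 times from the 158 of the paired edgeR fit in all 18 libraries with the block (256), DESeq2 (381), limma on log2(FPKM + 0.1) (261) and without single libraries. Leaving out a replicate number gave 47 to 123 calls, of which 3 to 21 were higher and 44 to 102 lower, and 11 to 18 red cell and 0 to 3 leukocyte list calls. Without the replicate block there were 161 calls, and leaving out 1 library of that fit, an alternative chosen after seeing the data, gave 93 to 156 calls without a Y-A library (16 to 22 higher, 76 to 134 lower) and 97 to 173 without a Y-P library (12 to 31 higher, 84 to 147 lower), with 86 lower calls without Y-A replicate 1, 13 higher calls without Y-P replicate 4, 18 to 24 red cell list calls and 0 to 4 leukocyte list calls. The 28 higher calls became 66 in all 18 libraries, 56 in 17, 97 with library size only, 149 in DESeq2, and 63 and 165 in limma with the pseudocounts 1 and 0.1. The 130 lower calls became 232 in DESeq2 and 57 in limma on log2(FPKM + 1). The 2 leukocyte calls became 5 in all 18 libraries, 1 with RLE, 1 with the red cell genes removed, 0 with no filter and 7 in DESeq2. The cause was not tested.

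Of the 96 genes recomputed under each alternative, those whose changes are printed apart from MED23, 87 kept direction and side of the threshold without the block and 5 lost the call. Among these 96 the direction turned for MMP9 and GLP1R. The MMP9 log2 fold change ran from -0.13 to 0.21 over the fits without a replicate number, with -0.0078 without replicate 3, and was -0.13 with no block and without Y-P replicate 5. The GLP1R log2 fold change ran from -0.051 to 0.23, with -0.032 without replicate 1 and -0.0059 without replicate 5, and was -0.063 and -0.095 with no block and without Y-P replicates 1 and 5. Depth limits what can be said of genes with at most 3 counts in Y-P, where a fold has no measured size.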
